A study of Homo sapiens with 36 samples.

Results

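Mitochondrial DNA encodes 13 proteins, and 6 of their mRNAs are described here: those for the subunits of respiratory complexes III, IV and V. They were chosen by transcript ID, as MT-CYB (ENST00000361789), MT-CO1 (ENST00000361624), MT-CO2 (ENST00000361739), MT-CO3 (ENST00000362079), MT-ATP6 (ENST00000361899) and MT-ATP8 (ENST00000361851), out of 223367 transcripts in the table. The cells were HUES6, a line of human embryonic stem cells kept in FTDA medium, in 2 genotypes: unmodified (WT) and with a knockout of the RNA-binding protein RBPMS (KO). Both genotypes received cycloheximide, which holds cytosolic ribosomes on their mRNAs, at 100 ng/ml for 5 min before lysis. Each of 3 cultures per genotype gave an Input sample and, after polysome profiling, samples of the 40S, the 80S, the disome and the fractions Polysome1 and Polysome2, in all 36 libraries in 12 groups of 3. The 6 cultures are named by genotype and number in the sample labels. The labels do not say whether the KO cultures are 1 clone or several, nor whether cultures of a genotype were grown apart, so p-values cover the spread between these samples, which may be technical. The Input sample of KO culture 3 carries the name Input2.

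These mRNAs are copied from the mitochondrial chromosome as parts of long transcripts, released mostly by cutting at the transfer RNAs that lie between them, and given poly(A) tails inside the organelle. They are read by mitochondrial ribosomes, which are separate from the cytosolic ribosomes and are not stopped by cycloheximide. MT-CYB encodes cytochrome b, the catalytic membrane subunit of complex III, which passes electrons from ubiquinol to cytochrome c. MT-CO1, MT-CO2 and MT-CO3 encode the core of complex IV, which hands electrons to oxygen. MT-ATP6 and MT-ATP8 encode membrane subunits of complex V, the ATP synthase, and are read from a single mRNA on which their coding regions overlap. Nuclear genes supply the other subunits of these complexes.

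Values were TPM, an abundance per transcript length that sums to 1000000 in each library, so they give shares of a library and not amounts of RNA. In such bulk samples, fewer cells of a type and less RNA per cell cannot be told apart. How many reads lie behind a value is unknown, so counting error could not be stated. The split of reads between MT-ATP6 and MT-ATP8 is uncertain because they share an mRNA, and 219 genes in RefSeq are pseudogenes named after these 6 genes, with which reads can also be shared. The identity of the cells, the level of RBPMS and the nuclear subunits were not analysed here, because no table given pairs the transcript IDs with names. Tests were made with limma on log2(TPM + 1) over the 51052 transcripts that reached 1 TPM in 3 or more libraries, a filter that all 6 mRNAs passed, and p-values were adjusted within each comparison with a threshold of 0.05.

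Some libraries stood apart. In the third WT culture the 40S library held 8956 transcripts at 1 TPM or more, against 14712 and 15949 in the other two. In KO culture 1 the disome library held 9867 such transcripts, and 70.5% of its TPM lay in 10 transcripts. KO cultures 1 and 2 held 18666 and 21914 such transcripts in Input against 31380 in KO culture 3 and 34899 to 38389 in WT. ERCC spike-ins, synthetic RNAs present in each library, summed to 33.4 to 166 TPM in WT Input and 306 to 1271 TPM in KO Input. In Polysome2 they summed to 2.55 to 9.41 TPM in WT and 47.8 to 579 TPM in KO. Few of the 92 ERCC rows were above 0 there. In cultures 1, 2 and 3 they were 15, 13 and 7 in WT and 37, 34 and 18 in KO. The sources used here do not give the step at which they were added.

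In WT Input the 6 mRNAs together took 11.5% ± 2.83 (SD, n = 3) of all TPM, and 5 or 6 of them were among the 10 most abundant transcripts. MT-CO3 was the most abundant transcript of the table in each WT Input library, at 40752, 38167 and 54211 TPM. MT-CO1 followed at 20276, 18349 and 32560 TPM and MT-CO2 at 18894, 16129 and 26736 TPM, ranges that overlap. MT-ATP6 stood at 10396 ± 2339 TPM, MT-CYB at 8963 ± 2733 TPM and MT-ATP8 at 6618 ± 1461 TPM (SD, n = 3). The range of MT-CYB overlaps both others, while the lowest MT-ATP6 value lay above the highest of MT-ATP8. WT culture 3 was the highest of the 3 for each of the 6 mRNAs. Of these 6 mRNAs, those of complex IV thus made up 8.87% ± 2.18 of all TPM, those of complex V 1.70% ± 0.379 and MT-CYB of complex III 0.896% ± 0.273. The mRNAs of nuclear subunits are not in these sums.

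**Figure D1:**
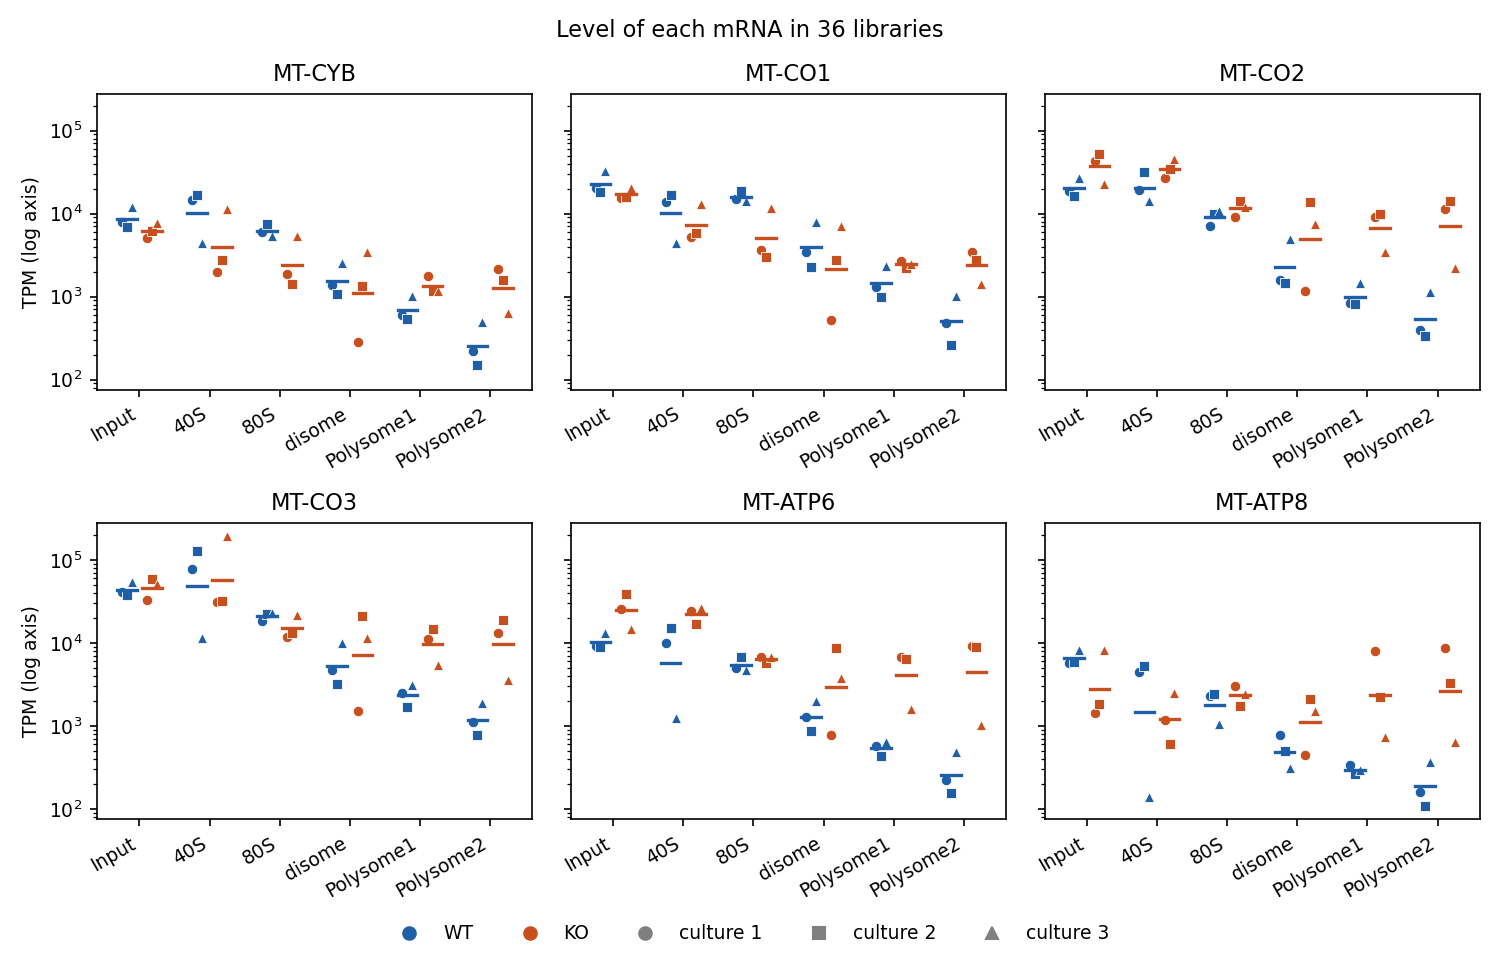
TPM of each mRNA (vertical log axis) in each of the 36 libraries by fraction (horizontal axis), WT in blue and KO in orange, with a marker shape per culture and a bar at the geometric mean of 3 libraries. WT levels are lower in Polysome2 than in Input, while in Polysome2 the 3 KO libraries lie above the 3 WT libraries for all 6 mRNAs.

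In WT these mRNAs took their smallest shares in the heavy fractions. Their summed share was 13.0% ± 8.97 in 40S and 6.0% ± 0.69 in 80S (SD, n = 3 each). The disome held 1.67% ± 0.963, Polysome1 0.658% ± 0.208 and Polysome2 0.327% ± 0.191. All 6 were lower in disome, Polysome1 and Polysome2 than in Input by limma, with median log2 differences of -3.02, -4.23 and -5.22, against -0.11, -0.05 and -0.15 over all 51052 transcripts. Of all transcripts tested, 10.7%, 8.83% and 8.81% were lower in these comparisons. The disome count fell to 2 of 6 without WT replicate 1 and to 1 of 6 without WT replicate 2. The share of all transcripts in these settings is not given here, so a general loss of calls cannot be told apart. Scaled to the ERCC total in place of the library total, 0 of 6 were called in the 3 comparisons. On that scale the median of the 6 in Polysome2 was -1.31 and that of all transcripts 2.57. ERCC scaling turned the split of all calls in Polysome2 against Input from 1672 higher and 4499 lower to 32209 higher and 626 lower.

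MT-CYB is given in full. Its WT libraries held 7893, 6927 and 12069 TPM in Input and 14683, 16556 and 4466 TPM in 40S. They held 5993, 7394 and 5418 TPM in 80S and 1378, 1059 and 2539 TPM in disome. In Polysome1 they held 594, 544 and 1007 TPM and in Polysome2 222, 149 and 499 TPM. From 80S to Polysome2, each fraction lay below the one before it without overlap of the replicates, as for 0.166% of all transcripts. It was the only one of the 6 for which this held, and it was singled out after its values were seen. In MT-CO2, MT-CO3 and MT-ATP6 the libraries of Polysome1 and Polysome2 overlapped, and in MT-CO1 and MT-ATP8 those of the disome and Polysome1 did too. MT-CO1, the catalytic subunit that holds the oxygen-binding site of complex IV, had the largest log2 difference between Polysome2 and Input of the 6, at -5.51 ± 0.68 (SE; adjusted p = 8.588e-07, limma). The other 5 lay between -5.31 and -5.09, within an SE of it. Per culture, Polysome2 held from 2.31% ± 0.854 (MT-CO1) to 3.04% ± 1.30 (MT-ATP8) of the Input level (SD, n = 3).

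The ends of the ribosomal part of the gradient differed too. WT Polysome2 against WT 80S gave 6 of 6 lower, with a median log2 difference of -4.27, where 4.44% of all transcripts were lower and the median of all was 0.23. This count was 3 of 6 without WT replicate 1 and 3 of 6 without WT replicate 2, and 2 of 6 with ERCC scaling. How many of all transcripts were called in these settings is likewise not given. Against Input, neither 40S nor 80S gave a call in WT by limma. At an unadjusted p under 0.05 there was 1 in 40S (MT-ATP8, lower, like 48.9% of all transcripts) and 0 in 80S, where 34.2% of all transcripts passed that threshold. After adjustment 43.2% and 22.4% of all transcripts were called. Between 80S and 40S in WT, 0 of 6 were called, where 3.31% of all transcripts were. At an unadjusted p under 0.05 there were again 0 of 6, and 22.4% of all transcripts.

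The WT 40S values rest on libraries that differ widely. MT-CO3 stood at 78528 and 129131 TPM in the libraries of cultures 1 and 2 and at 11405 TPM in that of culture 3. MT-ATP8 stood at 4513, 5243 and 139 TPM in the same order. Without the third library the median of the 6 for 40S against Input moved from -0.40 to 0.28, and still 0 of 6 were called.

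**Figure D2:**
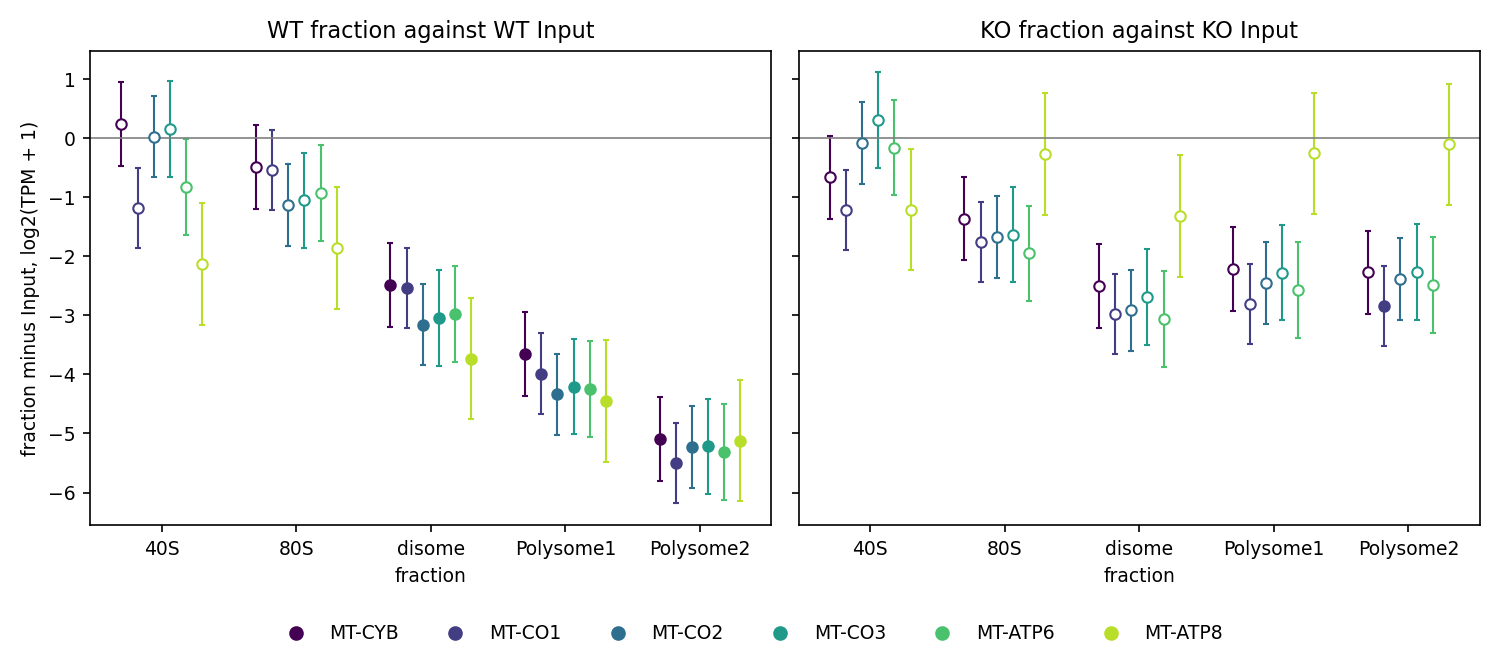
Difference in log2(TPM + 1) between each fraction and Input (vertical axis) for the 6 mRNAs, in WT (left) and KO (right), with points at the limma estimate, bars of 1 SE and filled points for an adjusted p below 0.05. In WT all 18 values of disome, Polysome1 and Polysome2 are filled, and in KO a single value is, that of MT-CO1 in Polysome2.

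In KO the summed share was 14.1% ± 2.87 in Input and 15.8% ± 11.6 in 40S, and 4.50% ± 1.28 in 80S (SD, n = 3 each). The 3 heavier fractions had mean shares of 2.97% ± 2.29 in the disome, 3.03% ± 1.35 in Polysome1 and 3.57% ± 2.27 in Polysome2. These means hide unlike cultures. KO culture 1 rose from 0.470% in its sparse disome library to 3.94% in Polysome1 and 4.79% in Polysome2. KO culture 2 held 4.97%, 3.66% and 4.96% in the same order, and KO culture 3 fell from 3.48% through 1.47% to 0.955%. Against KO Input, MT-CO1 in Polysome2 was the single call, at -2.84 ± 0.68 (SE; adjusted p = 0.04463, limma), where 0.0333% of all transcripts were lower. It was lost when any of the 6 cultures was left out. In 40S, 80S, disome and Polysome1 limma called 0 of 6, where 0.682%, 0%, 0.00196% and 0.0118% of all transcripts were called. At an unadjusted p under 0.05 there were 0 of 6 in 40S, where 12.9% of all transcripts passed in either direction. In 80S, disome and Polysome1 there were 3, 5 and 5 of 6, all lower, against 2.26%, 2.36% and 1.46% of all transcripts. Culture as a random replicate block raised the calls against KO Input to 2 of 6 in disome, 2 in Polysome1 and 3 in Polysome2, all lower. The share of all transcripts called lower rose with it, to 0.0372%, 0.176% and 0.413%.

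**Figure D3:**
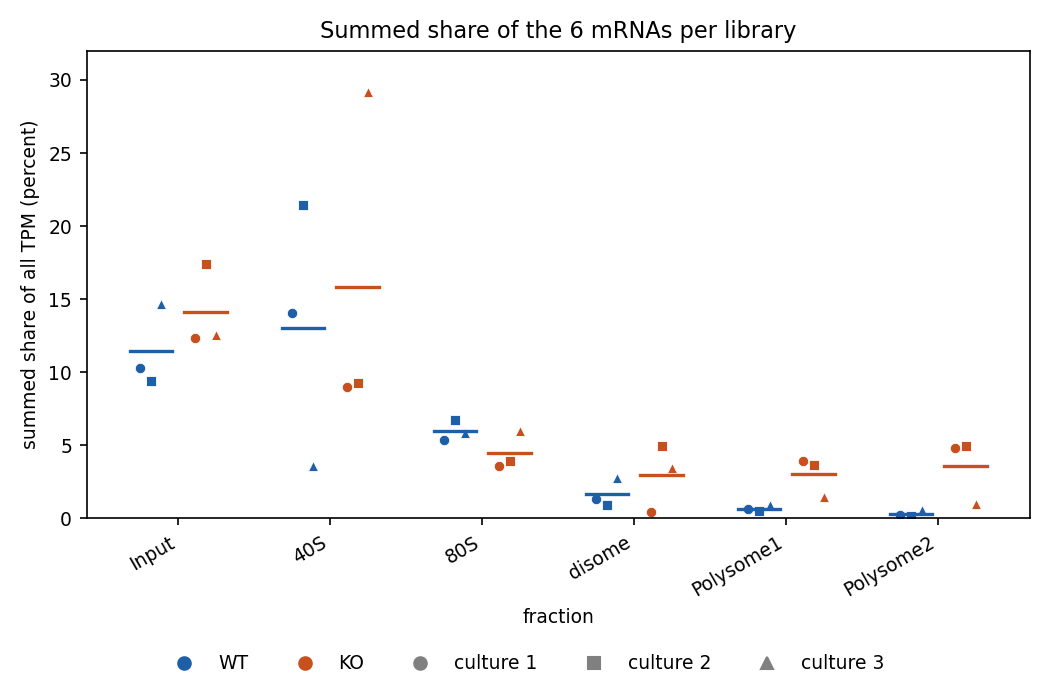
Summed share of all TPM held by the 6 mRNAs (vertical axis, percent) in each library by fraction, WT in blue and KO in orange, with a marker shape per culture and a bar at the mean of 3. The WT libraries reach 0.178% to 0.542% in Polysome2 and the KO libraries 0.955% to 4.96%.

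The KO cultures did not behave alike in this. The summed share in Polysome2 was 4.79% and 4.96% in KO cultures 1 and 2, and 0.955% in KO culture 3, against 0.259%, 0.178% and 0.542% in WT. In Input the KO shares were 12.4%, 17.4% and 12.5%, of which that of culture 2 lay above the WT range of 9.43% to 14.7%. KO culture 3 stepped down from fraction to fraction as WT did, from 5.97% in 80S through 3.48% in the disome and 1.47% in Polysome1 to 0.955% in Polysome2. This last value lay above each WT culture.

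Between genotypes, calls were made in the polysome fractions: in Polysome2 all 6 mRNAs were higher in KO by TPM, with a median log2 difference of 3.38, while on the ERCC scale all 6 values were below 0 and 3 were called lower. The median over all transcripts was -0.22, and 1.90% of all transcripts were called higher. With culture as a random replicate block 5 of 6 were called, all but MT-CYB (adjusted p = 0.05205, limma), and 3.38% of all transcripts were higher. On the ERCC scale 76.1% of all transcripts were called lower. Replicates did not overlap for any of the 6, as was so, with KO above WT, for 9.86% of all transcripts.

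For the complex III subunit, MT-CYB held 222, 149 and 499 TPM in WT Polysome2 and 2126, 1570 and 636 TPM in KO Polysome2. The lowest KO library, that of culture 3, lay just above the highest WT library. The log2 difference was 2.33 ± 0.71 (SE; adjusted p = 0.04893, limma), and -3.01 with ERCC scaling.

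For complex IV, MT-CO1 held 474, 264 and 1023 TPM in WT and 3404, 2781 and 1423 TPM in KO, a log2 difference of 2.24 ± 0.68 (adjusted p = 0.0488), and -3.11 with ERCC scaling. MT-CO2, whose protein carries the copper site that takes electrons from cytochrome c, held 398, 336 and 1146 TPM in WT and 11517, 14112 and 2198 TPM in KO. Its ratio of means was 14.8 and its log2 difference 3.73 ± 0.69 (adjusted p = 0.002252, limma), and -1.62 with ERCC scaling. MT-CO3 held 1111, 770 and 1901 TPM in WT and 13131, 18911 and 3615 TPM in KO, a log2 difference of 3.04 ± 0.81 (adjusted p = 0.02797), and -2.31 with ERCC scaling. In each of the 3, KO culture 3 was the lowest KO library and WT culture 3 the highest WT library.

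For complex V, MT-ATP6, the membrane subunit that forms the proton path, held 225, 155 and 484 TPM in WT and 9143, 8984 and 1037 TPM in KO. The ratio of means was 22.2, the largest of the 6. The log2 difference was 4.09 ± 0.81 (SE; adjusted p = 0.004311, limma), and -1.25 with ERCC scaling. MT-ATP8 held 161, 109 and 368 TPM in WT and 8577, 3256 and 637 TPM in KO, a log2 difference of 3.80 ± 1.03 (adjusted p = 0.03009), and -1.54 with ERCC scaling. In both, KO culture 3 was again the lowest KO library.

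**Figure D4:**
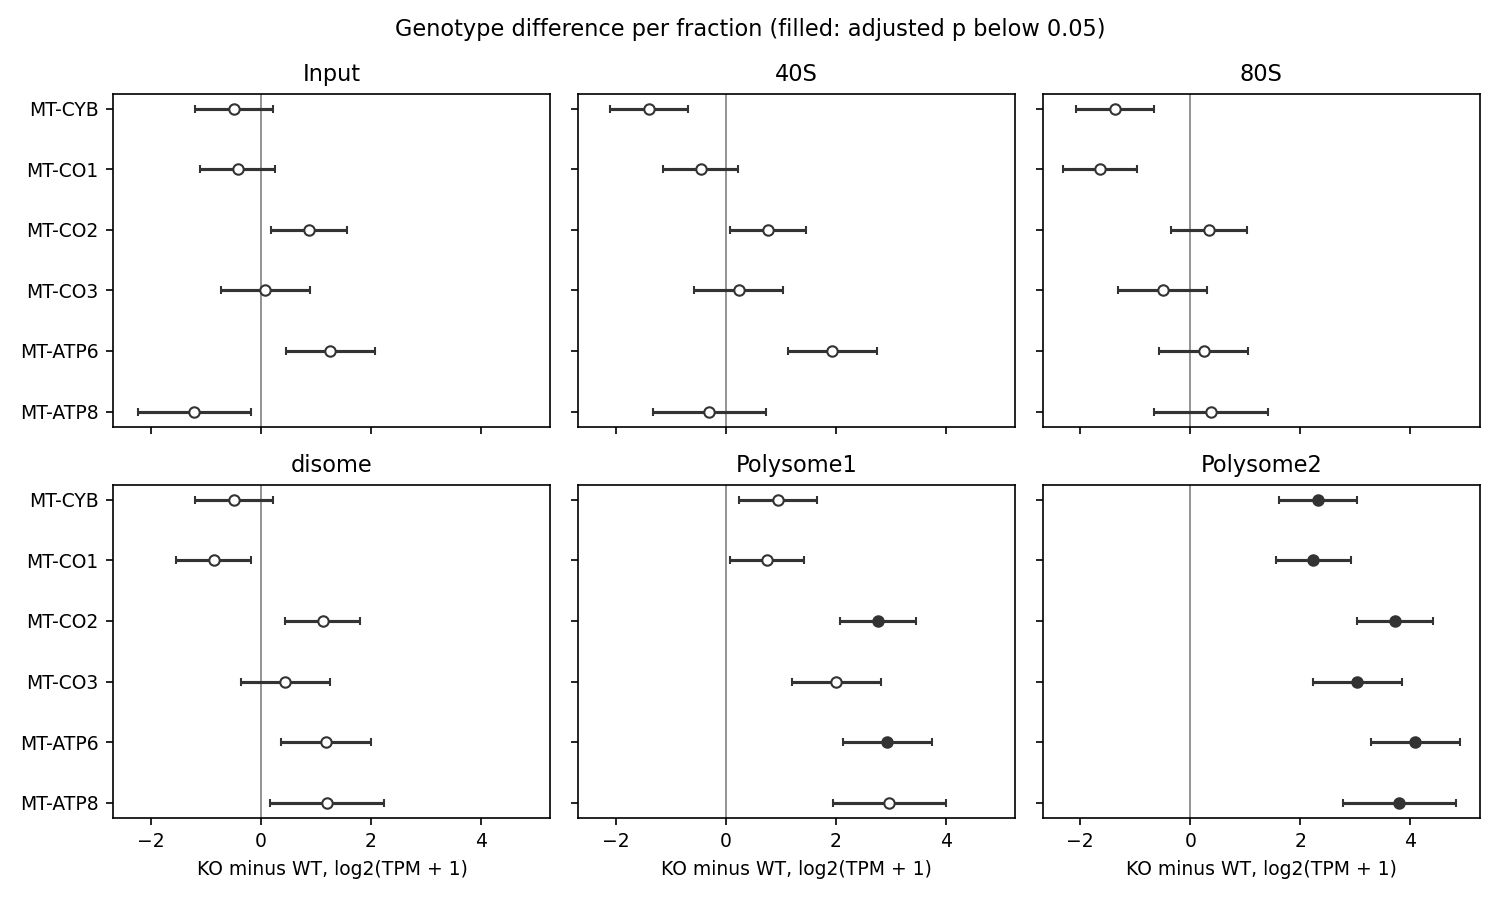
KO minus WT difference in log2(TPM + 1) (horizontal axis) for each mRNA in each of the 6 fractions, with points at the limma estimate, bars of 1 SE and filled points for an adjusted p below 0.05. Filled points stand in Polysome2 for all 6 mRNAs and in Polysome1 for MT-CO2 and MT-ATP6, higher in KO by TPM, while with ERCC scaling these values are below 0.

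These calls depended on the cultures and on the spread used. In Polysome2, 1 of 6 was past the threshold when replicate 1 or replicate 2 of KO, or replicate 1 of WT, was left out, and 2 were when replicate 2 of WT was. In these 4 settings 0.180% to 0.452% of all transcripts were called higher. Without WT replicate 3 there were 5 of 6, and 0.439% of all transcripts. All 6 were called without KO replicate 3, with differences of 2.61 to 5.14, where 4593 of all transcripts were called higher. With KO cultures 1 and 2 both left out, 0 of 6 were called and the differences ranged from 1.32 (MT-CYB) to 2.04 (MT-CO2). Fitted on the 2 groups alone, with their own spread, 0 of 6 and 0 of all 51052 transcripts were called. A pseudocount of 0.1, a filter at 10 TPM and scaling without the 6 mRNAs each left 4 of 6, without MT-CYB and MT-CO1. For these settings, and with KO cultures 1 and 2 both left out, the share of all transcripts is not given. The filter at 10 TPM also changes the number of transcripts tested. KO cultures 1 and 2 were also the ones with fewer transcripts at 1 TPM, 21548 and 20594 in Polysome2 against 30940 in KO culture 3 and 27558 to 30336 in WT; the part of this in the result was not tested.

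The ERCC scale moved all transcripts. With it, 152 transcripts were higher and 38857 lower in KO Polysome2, against 970 higher and 1847 lower by TPM, and the median of all transcripts went from -0.22 to -3.41. The median of the 6 went from 3.38 to -1.97. The scale applies 1 factor to all transcripts of a library.

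In Polysome1, MT-CO2 and MT-ATP6 were called higher in KO by TPM, with log2 differences of 2.77 ± 0.69 (adjusted p = 0.02458, limma) and 2.94 ± 0.81 (adjusted p = 0.03649), and of -1.51 and -1.33 with ERCC scaling. With that scaling the other direction was called for MT-CYB (-3.32), MT-CO1 (-3.52) and MT-CO3 (-2.26), lower in KO like 76.2% of all transcripts. MT-CO2 held 828, 816 and 1454 TPM in WT and 9124, 9896 and 3431 TPM in KO. MT-ATP6 held 569, 432 and 636 TPM in WT and 6838, 6383 and 1618 TPM in KO. Of all transcripts, 1.58% were called higher. By TPM the KO replicates lay above WT without overlap for 5 of the 6, all but MT-CO1, as for 9.17% of all transcripts. Leaving out replicate 1 or 2 of either genotype ended both calls. Without WT replicate 3 a single call was made, and 4 of 6 were called without KO replicate 3. The share of all transcripts in these settings is not given here. MT-ATP8 had a larger difference that missed the threshold, 2.98 ± 1.03 (adjusted p = 0.07332), with KO libraries at 7908, 2250 and 724 TPM.

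In Input, 40S, 80S and disome limma called 0 of 6 between genotypes. Of all transcripts, 20.0%, 0.0235%, 0.599% and 2.78% were called. At an unadjusted p under 0.05 there were 0 of 6 in Input and in disome, against 34.4% and 21.6% of all transcripts. There was 1 higher in 40S (MT-ATP6) and 1 lower in 80S (MT-CO1), against 4.17% higher and 11.5% lower. In Input, by TPM, MT-ATP6 had KO libraries at 25804, 39340 and 14627, all above the 9215, 8884 and 13091 TPM of WT, and a log2 difference of 1.26 ± 0.81 (adjusted p = 0.2721); 6.13% of all transcripts were placed so. It was also above WT without overlap in 40S, like 8.99% of all transcripts, at 1.94 ± 0.81 (adjusted p = 0.689). MT-CYB and MT-CO1 went the other way in 80S, where the KO replicates lay below WT without overlap, like 12.8% of all transcripts. MT-CO1 held 14973, 18585 and 14087 TPM in WT 80S and 3678, 3007 and 11597 TPM in KO 80S, a difference of -1.64 ± 0.68 (adjusted p = 0.224). With ERCC scaling the counts of lower calls were 4 of 6 in Input, 5 in 80S and 2 in disome, against 13.5%, 23.9% and 53.3% of all transcripts. The median difference in disome was 0.78, and 1.72 without the sparse library of KO culture 1, again with 0 of 6 called.

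The interaction test asks whether the genotype difference in a fraction departs from that in Input. It called 0 of 6 in each of 40S, 80S, disome, Polysome1 and Polysome2, where 5.17%, 3.87%, 3.59%, 2.68% and 2.31% of all transcripts were called. At an unadjusted p under 0.05 there were 0 of 6 in 40S, 80S and disome, where 19.0%, 15.8% and 14.4% of all transcripts passed in either direction. There was 1 of 6 in Polysome1 and there were 6 of 6 in Polysome2, all higher, against 10.3% and 9.54% of all transcripts. In Polysome2 the 6 values ran from 2.66 (MT-CO1) to 5.02 (MT-ATP8), all positive, with adjusted p from 0.06696 to 0.2904 by limma and a median of 2.84 against 0.27 over all transcripts. The others lay between 2.66 and 2.95 ± 1.14 (SE, MT-CO3). MT-ATP8 was the highest, at 5.02 ± 1.46 (SE), and its distance from the others was not tested. Its value joins a difference of 3.80 in Polysome2 with one of -1.22 in Input, where its split of reads with MT-ATP6 is uncertain. With ERCC scaling the median of the 6 was 0.57 and that of all transcripts -1.91, and with quantile normalization the median of the 6 was 4.02 and 4 of 6 were called. Without KO replicate 3, 4 of 6 passed, and without WT replicate 3, 1 did. The share of all transcripts is not given here for quantile normalization or for a replicate left out. Leaving out KO replicate 3 also raised the calls over all transcripts in KO against WT in Polysome2, as given above. Culture as a random replicate block gave 1 of 6, where 3.99% of all transcripts were higher. The genotype differences in Polysome2 and in 80S were also set against each other, a comparison added after the data were seen. It gave values of 3.39 to 3.88 with 0 of 6 called, where 0.0901% of all transcripts were called. At an unadjusted p under 0.05 there were 6 of 6, all higher, against 4.76% of all transcripts. Its median over the 6 was 3.61, and 1.19 with ERCC scaling. It gave 5 of 6 without KO replicate 3, again with no share of all transcripts given. With culture as a random replicate block it gave 3 of 6, where 0.592% of all transcripts were higher.

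Ratios between 2 of these mRNAs in the same library do not depend on how that library is scaled. All 15 pairs were computed in the 6 fractions, and in 54 of the 90 combinations (60.0%) KO and WT replicates did not overlap. Among ratios of 11999 other transcripts, with a mean of at least 5 TPM, to each of the 6 in each fraction, 38.3% did not overlap. With 3 against 3 libraries an exact permutation test cannot go below 0.1, and the smallest adjusted p over the 90 was 0.167, so no ratio passed a test. Pairs are described here after their values were seen.

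MT-CO2 relative to MT-CO1 was higher in KO in all 6 fractions without overlap. In Input the ratio was 0.932, 0.879 and 0.821 in WT and 2.83, 3.25 and 1.10 in KO. In Polysome2 it was 0.839, 1.28 and 1.12 in WT and 3.38, 5.08 and 1.54 in KO. KO culture 3 was nearest to WT each time. MT-ATP6 relative to MT-CO1 behaved likewise, at 0.454, 0.484 and 0.402 in WT Input and 1.69, 2.46 and 0.714 in KO Input. Of 12004 transcripts with a mean of at least 5 TPM, 5 (0.0417%) had such a ratio to MT-CO1, MT-CO2 and MT-ATP6 among them.

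The 5 pairs without overlap in all 6 fractions each had MT-CO2 or MT-ATP6 as the mRNA that was higher in KO: MT-CO2 relative to MT-CO1 and to MT-CYB, and MT-ATP6 relative to MT-CO1, MT-CYB and MT-CO3. MT-ATP6 relative to MT-CO2 overlapped between genotypes in 5 of 6 fractions, at 0.483 ± 0.0733 in WT Polysome2 and 0.634 ± 0.161 in KO Polysome2 (SD, n = 3). MT-CYB relative to MT-CO1 was 0.379 ± 0.00943 in WT Input and 0.364 ± 0.0298 in KO Input, and overlapped in 3 of 6 fractions. MT-CO3 was above WT relative to MT-CO1 in 4 fractions and below WT relative to MT-CO2 in 4.

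**Figure D5:**
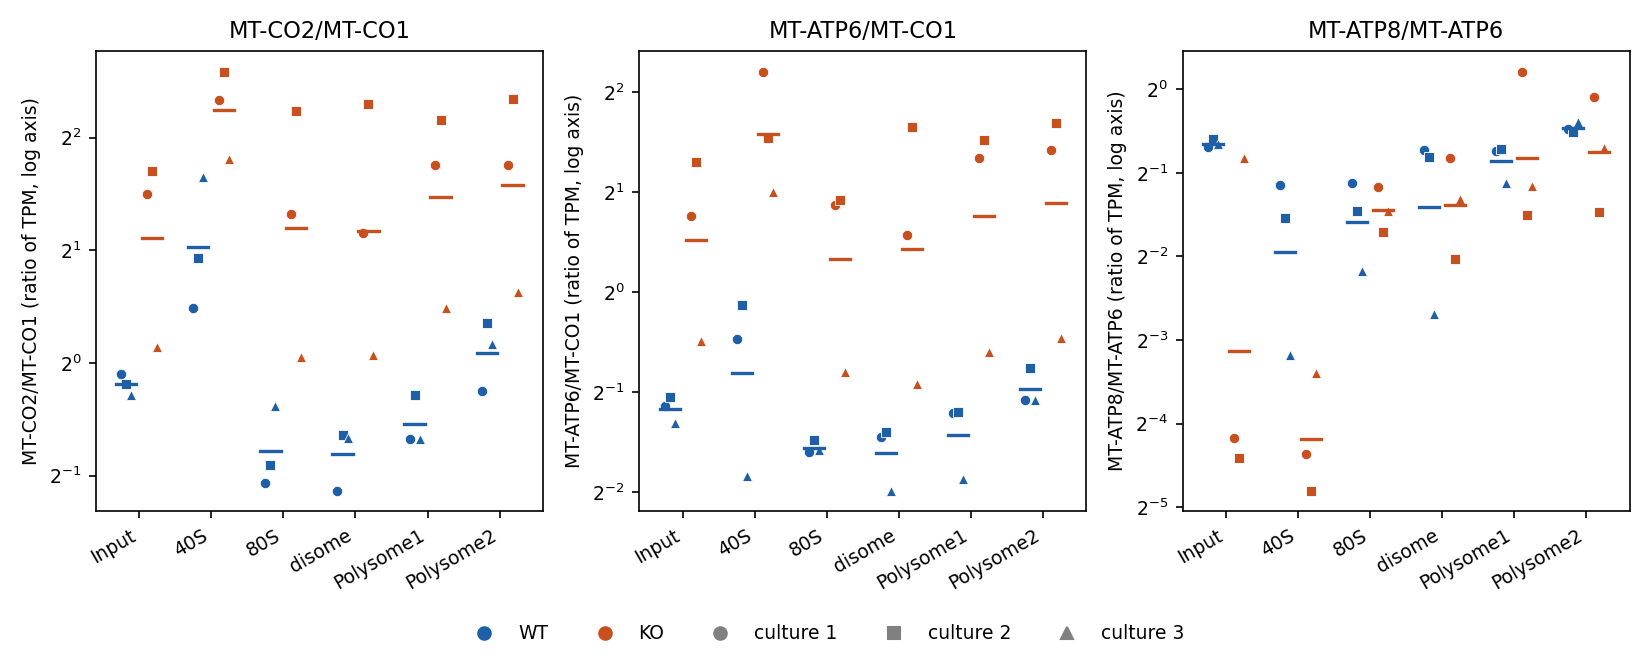
Ratios of TPM between pairs of mRNAs (vertical log axes) in each library by fraction, WT in blue and KO in orange, with a marker shape per culture and a bar at the geometric mean of 3. MT-CO2 and MT-ATP6 relative to MT-CO1 lie higher in KO in all 6 fractions, and MT-ATP8 relative to MT-ATP6 is lowest in KO 40S and in Input of KO cultures 1 and 2.

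The complex V pair, which shares an mRNA, did not keep a fixed ratio. MT-ATP8 relative to MT-ATP6 was 0.617, 0.660 and 0.634 in WT Input. In KO Input it was 0.0557 and 0.0470 in cultures 1 and 2, and 0.567 in culture 3. In KO 40S it was 0.0486, 0.0359 and 0.0954, below the 0.453, 0.345 and 0.111 of WT. In 80S, disome, Polysome1 and Polysome2 the genotypes overlapped, at 0.726 ± 0.0310 in WT Polysome2 and 0.638 ± 0.289 in KO Polysome2 (SD, n = 3). MT-ATP8 itself held 1439, 1849 and 8300 TPM in KO Input, so that its Polysome2 level was 596% and 176% of Input in KO cultures 1 and 2 and 7.68% in KO culture 3. In WT it was 1.85% to 4.44%.

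Across the 36 libraries the 6 profiles followed one another. As a description, over libraries that share cultures and fractions, Pearson's r of log2(TPM + 1) was 0.97 for MT-CYB with MT-CO1 and 0.97 for MT-CO2 with MT-ATP6. Each mRNA correlated with the mean of the other 5 at 0.764 (MT-ATP8) to 0.968 (MT-CO3). Among 11999 other transcripts with a mean of at least 5 TPM, the 2 whose profile was most like the mean of the 6 were ENST00000361381 (r = 0.976) and ENST00000361453 (r = 0.972), which no table given names. The former went from 7833 ± 2232 TPM in WT Input to 191 ± 128 TPM in WT Polysome2, and from 9728 ± 2092 TPM in KO Input to 1745 ± 1188 TPM in KO Polysome2 (SD, n = 3).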

How the data were processed

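Per the labels' protocols, the same RNA amount of each sample went into a stranded, poly(A)-selecting kit, with paired reads of 75 nt. The authors' deposited table held TPM per transcript. The submitters' processing notes name kallisto, sleuth and hg19; versions are not given in the sources used here. Groups and cultures came from the sample labels, and 0 columns were left unused.

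The members and lists were chosen with earlier results of these data known. The transcripts named besides the 6 members are the 2 most like their mean profile. The 92 ERCC rows were set aside. limma 3.58.1 (R 4.3.3) fitted the means of the 12 groups to log2(TPM + 1) of the 36 libraries (24 residual degrees of freedom, variance trend, Benjamini-Hochberg adjustment). The scale understates the change of low transcripts. Libraries of a culture were taken as independent in this fit. The alternatives were other pseudocounts, filters, scalings, blocks and left-out cultures. DESeq2 was planned for counts only and was not run. Ratios and figures used Python 3.11.15, pandas 2.3.3, scipy 1.17.1 and matplotlib 3.10.9.

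KO and WT were not paired by replicate number in the main fit. Deviations of same-numbered KO and WT libraries correlated at -0.71 to 0.11. Differently numbered libraries were not compared, so these values cannot show whether the numbers pair. Fractions of a culture are paired by the labels, with correlations to Input of -0.12 to 0.21 in WT and 0.29 to 0.70 in KO. Tested on simulated data for KO against WT in Input over 51052 transcripts, the fit recovered 18 of 50 changes at a log2 size of 3 in each direction, 2 of 50 at -1.5 and 0 of 50 at 1.5, with 1 false call. The simulated noise was independent between libraries, with 1 spread per transcript for all groups. Real groups differed in spread and libraries of a culture correlated, so the rate of false calls in these data is not known from it.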

Additional observations from a re-analysis of the deposited data

Results flagged for a closer look

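ERCC spike-ins, which serve here as an alternative scale and not as a result on the 6 mRNAs, took a larger part of the KO libraries in every fraction. The ratio of the KO to the WT mean of their summed TPM was 55.0 in Polysome2 and 23.0 in Polysome1. It was 7.21 in the disome, 8.41 in 80S, 5.95 in 40S and 8.16 in Input. In each fraction the lowest KO library lay above the highest WT library. Their part in the genotype differences of the 6 mRNAs is given above as values on the ERCC scale.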

How the results depend on the processing

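Counts of the 6 mRNAs called are given as lowest to highest over the 6 settings that each leave out 1 culture. In this section counts stand without the share of all transcripts, so a change of the 6 cannot be told from a general one. KO against WT ranged from 0 to 2 in 80S, 0 to 1 in disome, 0 to 4 in Polysome1 and 1 to 6 in Polysome2. The interaction with Input ranged from 0 to 1 in Polysome1 and 0 to 4 in Polysome2. In WT against Input it ranged from 1 to 6 in disome, and WT Polysome2 against 80S from 3 to 6. In KO against Input it was 0 to 1 in disome and 0 in Polysome2. Polysome2 set against 80S ranged from 0 to 5.

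ERCC scaling gave 4 (all lower) in KO against WT Input, 5 lower in 80S, 2 lower in disome, 3 lower in Polysome1 and 3 lower in Polysome2; 3 lower in WT 40S and 0 in WT disome, Polysome1 and Polysome2 against Input; 5 higher in WT 80S against 40S; 2 in WT Polysome2 against 80S; and 0 in KO Polysome2 against Input. The log2 differences called by TPM that reversed with it were -1.51 (MT-CO2) and -1.33 (MT-ATP6) in Polysome1, and -3.01 (MT-CYB), -3.11 (MT-CO1), -1.62 (MT-CO2), -2.31 (MT-CO3), -1.25 (MT-ATP6) and -1.54 (MT-ATP8) in Polysome2. Of differences not called by TPM, those called with the other sign on it were -3.52 (MT-CO1), -2.26 (MT-CO3) and -3.32 (MT-CYB) in Polysome1, -2.68 (MT-ATP6) and -2.58 (MT-CO2) in 80S and -3.0 (MT-CO3) in Input for KO against WT, and 3.42 (MT-ATP6), 2.36 (MT-CO2) and 2.79 (MT-CYB) for WT 80S against 40S. The cause was not tested.

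KO against WT in Polysome1 gave 0 with a pseudocount of 0.1, no filter, median-of-ratios scaling, only the groups compared, or KO cultures 1 and 2 left out, and 1 with a filter at 10 TPM. KO against WT in Polysome2 gave 2 with no filter, 4 with a pseudocount of 0.1, a filter at 10 TPM or members-free scaling, 5 with culture as a random replicate block, and 0 with only the groups compared or KO cultures 1 and 2 left out. Median-of-ratios scaling gave 1 in KO against WT 40S, 3 higher in WT 40S against Input, 3 lower in WT 80S against 40S and 1 in Polysome2 against 80S. Quantile normalization gave 1 and 4 in the interactions of Polysome1 and Polysome2, 1 in WT 40S against Input and 2 in Polysome2 against 80S. WT 80S against Input gave 1 with only the groups compared. KO Polysome2 against Input gave 0 with a pseudocount of 0.1, no filter, quantile, median-of-ratios or members-free scaling, only the groups compared, or KO cultures 1 and 2 left out. Replicate number as a replicate block changed no count. Culture as a random replicate block (correlation 0.326) gave 1 in the Polysome2 interaction, 2, 2 and 3 in KO disome, Polysome1 and Polysome2 against Input, and 3 in Polysome2 against 80S. Of the alternative values of called members, 440 kept direction and side of the threshold, 119 missed the threshold and 8 reversed. Most that kept both belonged to comparisons within WT. The differences in those cannot change when only KO libraries are left out. For KO against WT in Polysome2, 53 kept both, 43 missed the threshold and 6 reversed. For KO against WT in Polysome1 these numbers were 12, 20 and 2. Depth is unknown, so no depth limit can be given.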
